A study of Arabidopsis thaliana with 9 samples.

Results

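Arabinogalactan proteins are hydroxyproline-rich glycoproteins of the plant cell surface, carried on genes named AGP and a number. The 30 members described here are the protein-coding genes on chromosomes 1 to 5 whose symbol is AGP followed by a number, out of 27444 protein-coding genes. They were picked by symbol alone, but the family was taken up with its coverage in these data already known. Every count and percentage of coverage below is therefore a description, with no test. Classical members have a backbone rich in proline, alanine, serine and threonine and are usually tethered to the membrane by a GPI anchor. Lysine-rich members carry a short lysine-rich stretch in such a backbone, AG peptides have a much shorter one, and chimeric members join an arabinogalactan region to another domain. By these classes, assigned from general knowledge of the family, there were 13 classical, 3 lysine-rich, 12 AG peptide and 2 chimeric members. AGP6, AGP11, AGP23 and AGP40 are the members known for expression in pollen.

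The chromatin came from FACS-sorted sperm nuclei of Arabidopsis htr10 mutant plants, and all groups share that genotype. The groups were 3 immunoprecipitations of H3K27me1, 3 of H3K27me3 and 3 inputs of chromatin digested with micrococcal nuclease, or 9 samples in all. The labels give the ecotype as Col-0 for 5 of the samples and as Col-1, Col-2, Col-3 and Col-4 for 1 each. HTR10 (AT1G19890), a histone H3 gene of the male gamete, had 0% of its length under broad peaks of either mark, and a peak list cannot check the mutation. No wild-type sperm and no gene expression were analysed here, so the sorted cell type could not be checked against marker genes either. The data were 1 broad and 1 narrow peak list per mark, with no value per sample. No spread between samples could be computed and the depth is unknown.

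H3K27me1 and H3K27me3 are mono- and trimethylation of one lysine of histone H3. In Arabidopsis, Polycomb complexes place H3K27me3 on genes that are kept silent, whereas H3K27me1 is best known from heterochromatin. In the pollen grain, a pair of sperm cells lies inside a vegetative cell that grows the pollen tube.

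Many AGP genes lay under both marks over most of their length. At least 50% of the gene was under H3K27me1 broad peaks in 9 of 30 members (30%), against 5.49% of all protein-coding genes. For H3K27me3 it was 10 of 30 (33.3%), against 5.67%. Either mark did so on 11 members (36.7%), against 7.43%. The whole gene was under H3K27me1 in 7 members (23.3%), against 3.88%, and under H3K27me3 in 9 (30%), against 3.89%. Both marks reached this coverage on 8 members (26.7%), against 3.73% of all protein-coding genes, and those 8 were AGP1, AGP3, AGP10, AGP11, AGP14, AGP17, AGP24 and AGP27. AGP16 was covered to this extent by H3K27me1 alone, and AGP6 and AGP20 by H3K27me3 alone. A further 4 members per mark were covered in part, and none of these lay near the 50% line. The lowest H3K27me1 coverage above the line was 87.6% on AGP16 and the highest below it 21.7% on AGP6. For H3K27me3 these were 91.9% on AGP17 and 7.03% on AGP7.

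Short genes are more often covered over most of their length, and AGP genes are short, with a median of 858 bp (range 427 to 1915 bp) against 2078 bp for all protein-coding genes. Among the 11315 protein-coding genes within that range, 8.80% were covered over at least 50% by H3K27me1 and 9.25% by H3K27me3. Their median length was 1283 bp, longer than that of AGP genes, so they are not fully matched for length. Of the 21 members under 1000 bp, 7 (33.3%) were covered by H3K27me1 and 8 (38.1%) by H3K27me3. Protein-coding genes under 1000 bp had 16.6% and 17.5%. Of these short genes, 21.9% were covered over at least 50% by either mark and 12.2% by both. The whole gene lay under H3K27me1 in 15.2% of them and under H3K27me3 in 15.6%. By the same rules all 30 members had 36.7%, 26.7%, 23.3% and 30%, so their excess is smaller beside short genes than beside all protein-coding genes. Within the family, the 9 members covered by H3K27me1 had a median of 830 bp and the other 21 a median of 965 bp. The 10 covered by H3K27me3 had a median of 850 bp and the other 20 a median of 905.5 bp. The median coverage over the 30 genes was 0% for both marks, as it was over all protein-coding genes. Mean coverage was 31.1% for H3K27me1 (SD 44.7 over 30 genes) and 33.6% for H3K27me3 (SD 47.2), against 7.41% and 7.93% over all protein-coding genes. The SDs describe a family split between full and absent coverage.

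**Figure D1:**
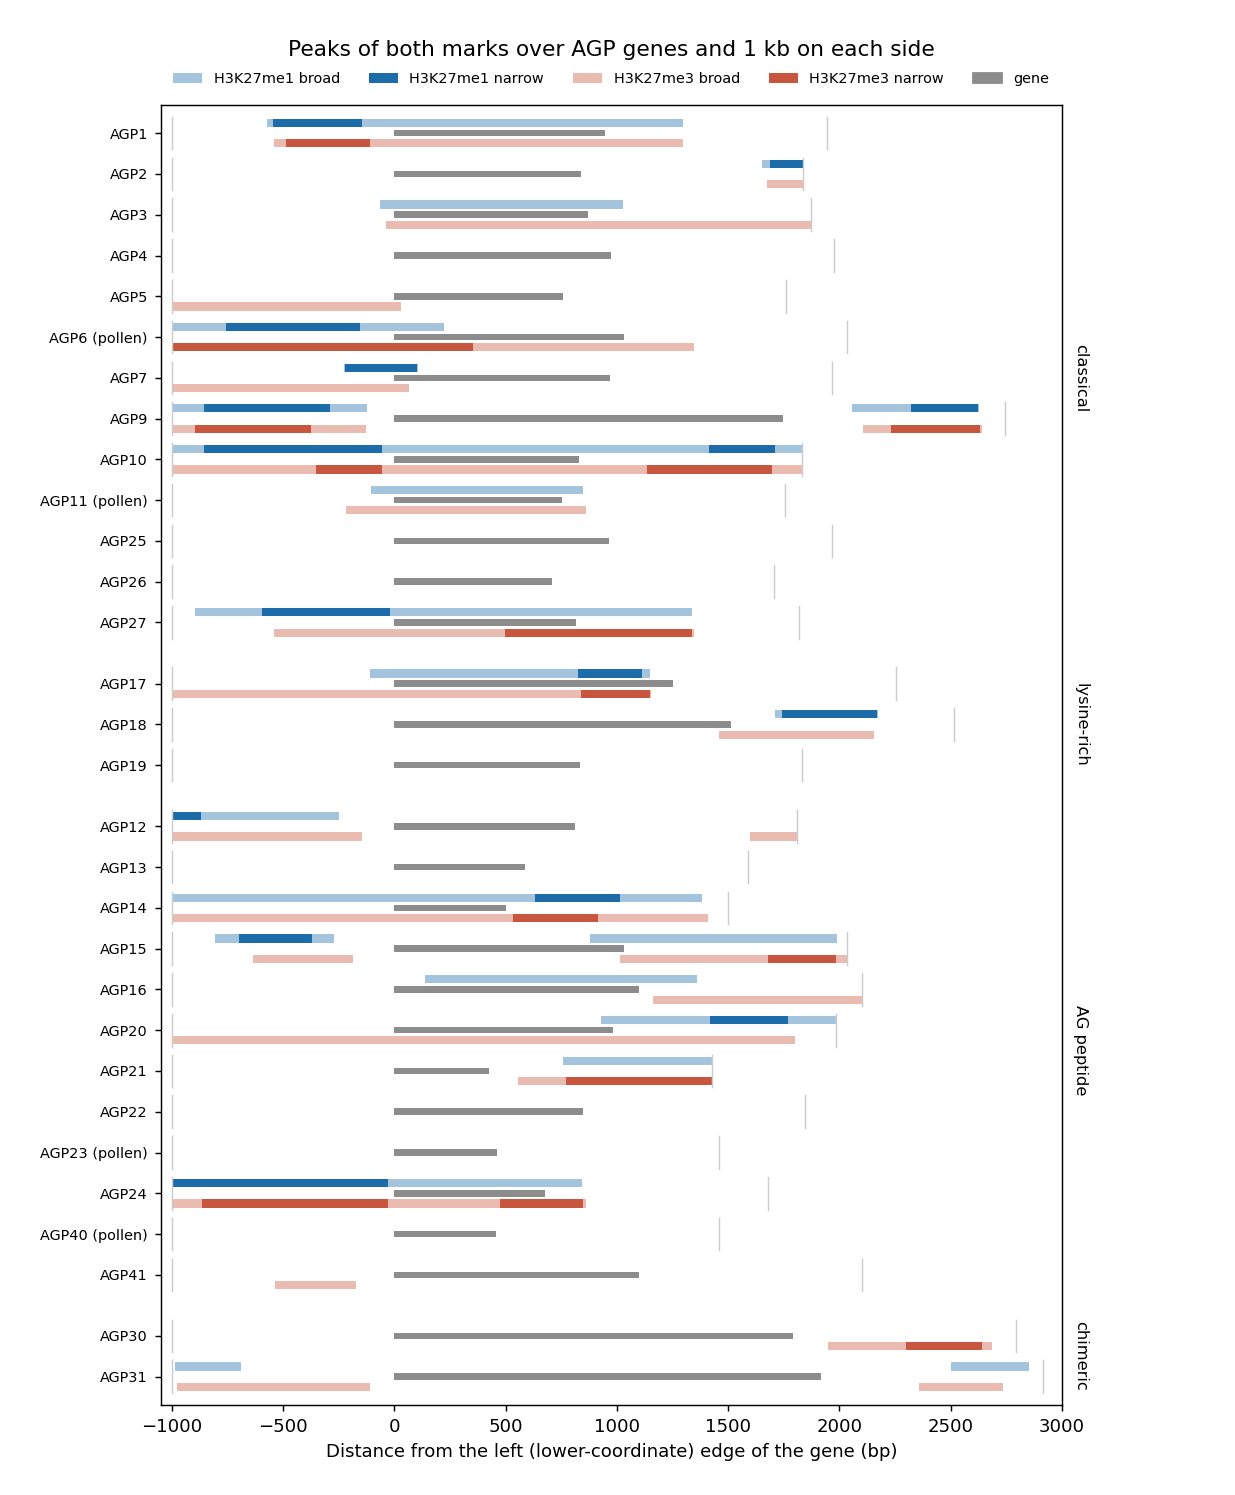
Broad (pale) and narrow (dark) peaks of H3K27me1 (blue, above each gene) and H3K27me3 (red, below) over the 30 AGP genes (grey) and 1 kb on each side. The x axis is the distance in bp from the edge of the gene with the lower coordinate, and vertical ticks close each window. Peaks of both marks span 8 members over most of their length, and 8 members have no peak in the window.

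Of the pollen-expressed members, the classical AGP6 and AGP11 were covered and the AG peptides AGP23 and AGP40 were not. AGP6 and AGP11 are known to act together in pollen grain and pollen tube development. AGP11 (AT3G01700) lay 100% under both marks. The H3K27me1 peak over AGP11 was chr3:258775-259727 on TAIR10, a width of 953 bp, and that of H3K27me3 was chr3:258663-259740, a width of 1078 bp, around a gene of 753 bp. The authors' enrichment over background was 1.47-fold for H3K27me1 (−log10 q 1.47) and 1.84-fold for H3K27me3 (−log10 q 3.44). Fold and −log10 q are the authors' values for each peak here and below. With only peaks of a −log10 q of at least 2 kept, H3K27me1 covered 0% and H3K27me3 100% of AGP11. Of its lower-coordinate flank 10.4% lay under H3K27me1 and 21.6% under H3K27me3, and of its higher-coordinate flank 9.6% and 10.9%.

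AGP6 (AT5G14380) was covered 21.7% by H3K27me1 and 100% by H3K27me3. The H3K27me3 peak spanned chr5:4634236-4636991 (1.80-fold, −log10 q 3.86). The H3K27me1 peak began at nearly the same place, at 4634264, and ended 224 bp inside the gene, at 4635867 (1.72-fold, −log10 q 4.28). The narrow peaks of both marks had their summits at the same distance from AGP6, 329 bp outside the edge with the lower coordinate. Narrow H3K27me3 covered 34.2% of the gene and narrow H3K27me1 0%. The lower-coordinate flank of AGP6 was 100% under both marks, and the higher-coordinate flank 0% under H3K27me1 and 31.5% under H3K27me3.

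AGP23 (AT3G57690) and AGP40 (AT3G20865) had 0% of the gene and 0% of either 1 kb flank under broad peaks of both marks. The nearest H3K27me1 peak lay 7572 bp from AGP23 and 7936 bp from AGP40. The nearest H3K27me3 peak lay 9407 and 8730 bp away. These were the shortest members but for AGP21, at 460 and 459 bp.

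The pollen-expressed genes and the other members compared differently by mark and by the stretch measured. Mean gene coverage by H3K27me1 was 30.4% over the 4 pollen-expressed members and 31.2% over the other 26. By H3K27me3 it was 50% and 31.1%. The difference of pollen-expressed minus other members was -0.76 percentage points for H3K27me1 and 18.9 for H3K27me3. With both 1 kb flanks added to the gene it was -10.2 for H3K27me1 and -8.32 for H3K27me3. For H3K27me1 it was -18.5 with peaks of −log10 q 2 and above and -14.5 with the upper 50% of peaks by fold. In both selections AGP11 had 0% under H3K27me1. With narrow peaks, or a −log10 q of at least 5, every pollen-expressed member had 0% under H3K27me1. The difference could not then be above 0, and its sign over these selections is not read as a result. The flanks alone had means of 15% for H3K27me1 and 20.5% for H3K27me3 in the pollen-expressed members, and 28.6% and 41.9% in the others. At least 50% of the gene was under H3K27me3 in 2 of the 4 pollen-expressed members and in 8 of the other 26. Under H3K27me1 it was 1 of 4 and 8 of 26. Among all protein-coding genes the shares were 5.67% for H3K27me3 and 5.49% for H3K27me1.

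Among the classical members, 5 of 13 were covered over at least 50% by H3K27me1 and 6 of 13 by H3K27me3. The shares of all protein-coding genes were 5.49% and 5.67%, and of those under 1000 bp 16.6% and 17.5%. AGP1 (AT5G64310) lay 100% under both marks, in peaks of like extent. These were chr5:25721161-25723029 for H3K27me1 (1.81-fold, −log10 q 4.53) and chr5:25721191-25723031 for H3K27me3 (1.63-fold, −log10 q 1.99). They covered 57.2% and 54.2% of its lower-coordinate flank and 35.1% and 35.3% of the other. AGP3 (AT4G40090) also lay 100% under both, but in the weakest peaks that covered any member, at 1.45-fold for H3K27me1 (−log10 q 1.45) and 1.49-fold for H3K27me3 (−log10 q 1.25). Its H3K27me1 peak was 1094 bp wide around a gene of 870 bp, while the H3K27me3 peak went on over the whole flank on the higher-coordinate side, of which H3K27me1 covered 15.9%. Its lower-coordinate flank had 6.5% under H3K27me1 and 3.8% under H3K27me3.

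AGP10 (AT4G09030), on chromosome 4 within the pericentromere window, was covered by the widest peaks of any covered member. It lay with both flanks 100% under H3K27me1, in a peak of 5411 bp (1.66-fold, −log10 q 4.07), and under H3K27me3, in a peak of 7259 bp (1.62-fold, −log10 q 2.54). Narrow peaks of both marks stood on each side of AGP10, and 0% of the gene itself was under a narrow peak. AGP27 (AT3G06360) lay 100% under both marks, in a peak of 2235 bp for H3K27me1 (1.61-fold, −log10 q 3.08) and 1890 bp for H3K27me3 (1.73-fold, −log10 q 2.79). H3K27me1 covered 89.6% and H3K27me3 54.2% of its lower-coordinate flank, and 52.2% and 53.1% of the other. Its narrow H3K27me1 peak had its summit 425 bp outside the lower-coordinate edge, whereas the narrow H3K27me3 peak covered 39.3% of the gene from the other end.

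The other classical members had peaks beside the gene or none. AGP7 (AT5G65390) had the broad peak of highest fold on any member, an H3K27me1 peak of 2.21-fold enrichment (−log10 q 9.39), ranked 76 of 11898 in its list by fold. It was only 329 bp wide and covered 10.9% of the gene and 22.4% of the lower-coordinate flank. H3K27me3 (1.74-fold, −log10 q 2.91) covered 7.03% of AGP7 and 100% of that flank, and the other flank had neither mark. AGP5 (AT1G35230), in the pericentromere window of chromosome 1, had 4.08% under H3K27me3 (1.51-fold, −log10 q 2.09) and 0% under H3K27me1. The whole flank on its lower-coordinate side was under H3K27me3, and no flank base was under H3K27me1. AGP9 (AT2G14890), in the window of chromosome 2, was bare over its 1745 bp, with 87.7% and 57.3% of its lower- and higher-coordinate flanks under H3K27me1 and 87.4% and 53.7% under H3K27me3. On the lower-coordinate side of AGP9 the peaks ended 123 bp away for H3K27me1 (1.63-fold, −log10 q 5.05) and 126 bp away for H3K27me3 (1.77-fold, −log10 q 7.12). On the higher-coordinate side they began 309 bp away (1.53-fold, −log10 q 3.04) and 360 bp away (1.81-fold, −log10 q 4.86). AGP2 had 0% of the gene covered, and 18.6% of its higher-coordinate flank under H3K27me1 and 16.2% under H3K27me3. AGP4, known as JAGGER for its part in blocking further pollen tubes after fertilisation, and AGP25 and AGP26 had no peak within 1 kb.

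Of the 3 lysine-rich members, AGP17 (AT2G23130), known from a mutant that resists Agrobacterium transformation, was covered 91.6% by H3K27me1 and 91.9% by H3K27me3. H3K27me1 had the peak chr2:9844023-9845280 (1.81-fold, −log10 q 4.82) and H3K27me3 the peak chr2:9841673-9845284 (1.86-fold, −log10 q 4.0). Both peaks stopped short of the end of the gene, 4 bp apart, and the flank beyond had neither mark. On the lower-coordinate side H3K27me1 covered 11.1% and H3K27me3 100% of the flank. AGP17 was the one member with a narrow summit of both marks inside the gene, and narrow peaks covered 23.0% and 24.5% of it. AGP18 (AT4G37450), which is required in the ovule for the female germline, had 3.64% under H3K27me3 (1.50-fold, −log10 q 1.28) and 0% under H3K27me1. Its higher-coordinate flank was covered 46.5% and 64.3% by H3K27me1 and H3K27me3. AGP19, which acts in cell division and expansion, had no peak of either mark within 1 kb.

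The 12 AG peptide genes held the members in which the marks differed most. At least 50% of the gene was under H3K27me1 in 3 of them and under H3K27me3 in 3, with AGP14 and AGP24 under both. Each count is 25% of these genes, against 5.49% and 5.67% of all protein-coding genes and 16.6% and 17.5% of those under 1000 bp. AGP24 (AT5G40730) lay 100% under both, in the peaks of highest −log10 q among those that covered most of a member. These were chr5:16299849-16301916 for H3K27me1 (1.88-fold, −log10 q 7.25) and chr5:16299829-16301932 for H3K27me3 (1.92-fold, −log10 q 5.47). The narrow peaks beside AGP24 had a fold of 3.02 for H3K27me1, ranked 308 of 9451, and 3.53 for H3K27me3, ranked 115 of 8940. Their summits lay 322 and 328 bp outside the lower-coordinate edge. The flank on that side was 100% under both marks, and the other had 16.8% under H3K27me1 and 18.4% under H3K27me3. AGP14 (AT5G56540), which affects root hair length, lay 100% under both marks, in a peak of 2664 bp for H3K27me1 (1.57-fold, −log10 q 2.25) and 2633 bp for H3K27me3 (1.63-fold, −log10 q 2.03). Its lower-coordinate flank was 100% under both marks, and the other 88.3% under H3K27me1 and 91.0% under H3K27me3.

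AGP16 (AT2G46330) and AGP20 (AT3G61640) were each covered by 1 of the marks. AGP16 was 87.6% under the H3K27me1 peak chr2:19018400-19019621 (1.51-fold, −log10 q 1.88) and 0% under H3K27me3. An H3K27me3 peak began 59 bp beyond AGP16 and covered 94.1% of its higher-coordinate flank (1.60-fold, −log10 q 1.95), where H3K27me1 covered 25.7%. The lower-coordinate flank of AGP16 had neither mark. AGP20 was 5.69% under H3K27me1 and 100% under H3K27me3, whose peak was chr3:22806555-22811841 (1.59-fold, −log10 q 1.89). The H3K27me1 peak chr3:22810969-22812175 (1.53-fold, −log10 q 2.24) covered 100% of the higher-coordinate flank, of which H3K27me3 covered 81.7%. The lower-coordinate flank was 0% under H3K27me1 and 100% under H3K27me3. For AGP20 the H3K27me1 peak, 1207 bp wide, began inside the H3K27me3 peak and ended 334 bp beyond it. For AGP16 the H3K27me3 peak overlapped the end of the H3K27me1 peak. None of the peaks covering most of AGP16 and AGP20 reached a −log10 q of 2.

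AGP15 (AT5G11740) had 14.8% under H3K27me1 and 1.74% under H3K27me3, with both flanks covered in part. The H3K27me1 share was 53.7% of the lower-coordinate and 95.6% of the higher-coordinate flank, and the H3K27me3 share 45.1% and 100%. The peaks that reached AGP15 were of 1.58-fold for H3K27me1 (−log10 q 2.44) and 1.93-fold for H3K27me3 (−log10 q 4.29). AGP12 (AT3G13520) and AGP21 (AT1G55330), a gene of root hair patterning, had bare genes beside covered flanks. On the lower-coordinate side of AGP12, H3K27me1 covered 75.3% (1.51-fold, −log10 q 2.28) and H3K27me3 85.4% (1.74-fold, −log10 q 3.71) of the flank, and on the other side 0% and 21.3%. On the higher-coordinate side of AGP21 they covered 66.8% (1.53-fold, −log10 q 2.35) and 87.1% (1.71-fold, −log10 q 3.06), and the other flank had neither. AGP41 had 36.5% of 1 flank under H3K27me3 and no H3K27me1 within 1 kb. AGP13 and AGP22, like the pollen-expressed AGP23 and AGP40, had no peak within 1 kb.

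Both chimeric genes were bare. AGP31 (AT1G28290), a cell wall protein of vascular tissue, had 29.5% and 35.1% of its lower- and higher-coordinate flanks under H3K27me1 and 86.8% and 37.5% under H3K27me3. The peaks beside AGP31 were of 1.48- and 1.55-fold for H3K27me1 (−log10 q 1.87 and 3.12) and 1.61- and 1.67-fold for H3K27me3 (−log10 q 2.2 and 3.30). AGP30 (AT2G33790), a root protein, had 73.6% of its higher-coordinate flank under H3K27me3 (1.77-fold, −log10 q 3.05) and no H3K27me1 peak nearer than 6036 bp.

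The 8 members without a peak of either mark on the gene or its flanks made up 26.7% of the family, against 40.7% of all protein-coding genes. For these 8 the nearest H3K27me1 peak lay at a median of 7754 bp (range 1141 to 101906 bp), and the nearest H3K27me3 peak at 5658.5 bp (range 2099 to 9825 bp). The farthest H3K27me1 peak was that of AGP26, whose nearest H3K27me3 peak lay at 2953 bp.

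The flanks of AGP genes were more often covered by H3K27me3 than those of other genes. At least 50% of 1 flank was under H3K27me3 in 19 of 30 members (63.3%), against 37.7% of all protein-coding genes, and under H3K27me1 in 11 of 30 (36.7%), against 33.6%. The second of these shares is close to its background. With 1 base as the limit, 22 of 30 members (73.3%) had H3K27me3 in a flank, against 53.2%, and 19 of 30 (63.3%) had H3K27me1, against 47.5%. Summed over the family, 26.8% of flank bases lay under H3K27me1 and 39.1% under H3K27me3, and over all protein-coding genes 20.0% and 22.0%. Flanks reach into neighbouring genes in places, and leaving such bases out kept the counts at 22 and 19.

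**Figure D2:**
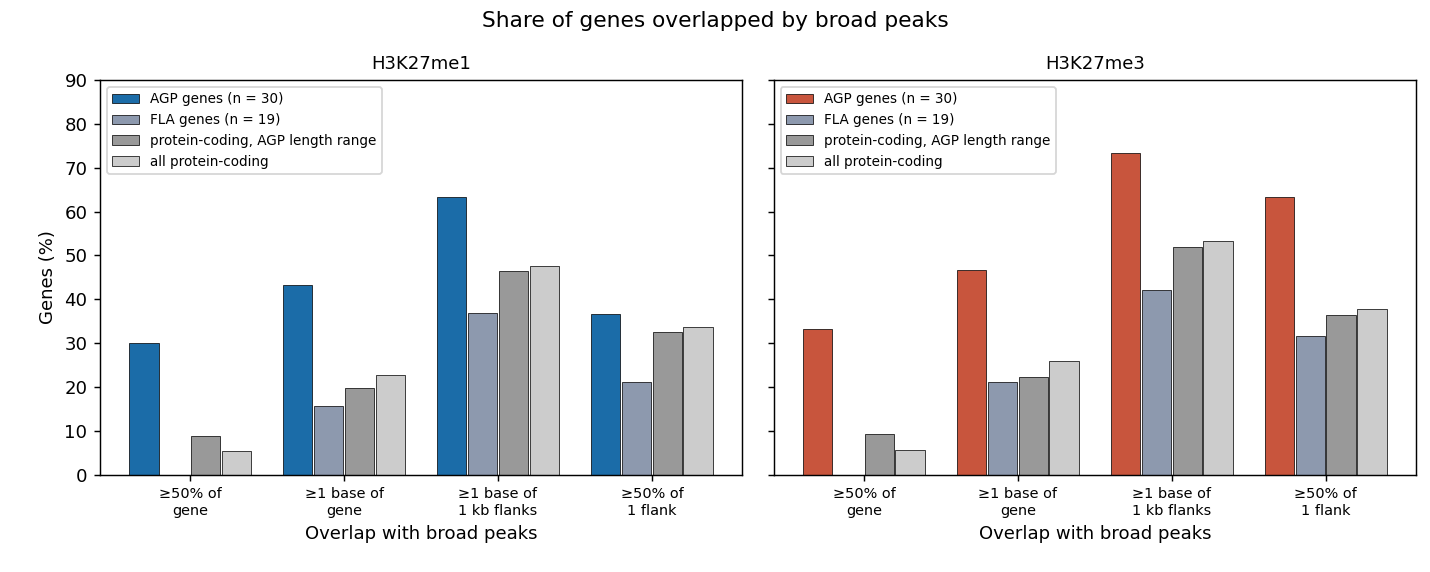
Percentage of genes that meet 4 overlap rules with broad peaks of H3K27me1 (left) and H3K27me3 (right), for AGP genes (blue or red), the fasciclin-like FLA genes, protein-coding genes within the AGP length range and all protein-coding genes. AGP genes have the tallest bar in each of these comparisons, close to that of all protein-coding genes for at least 50% of 1 flank under H3K27me1, with 36.7% against 33.6%.

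The marks overlapped on AGP genes. Of the gene bases under H3K27me1, 85.9% also lay under H3K27me3, and of those under H3K27me3, 79.1% also lay under H3K27me1. Over all protein-coding genes these shares were 67.8% and 63.0%. In the flanks of AGP genes 93.5% of H3K27me1 bases were shared and 64.1% of H3K27me3 bases, against 80.2% and 72.7% over all protein-coding genes. AGP3, AGP5, AGP7, AGP16, AGP17 and AGP20 each had a flank 94.1% or 100% under H3K27me3 in which H3K27me1 covered at most 25.7%. Both limits are the values of AGP16. The share of all protein-coding genes with such a flank was not computed, so this is not read as a trait of the family.

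Inside AGP genes coverage was higher than inside other genes, by more than it was outside them. In a profile of both gene edges in bins of 100 bp, H3K27me1 covered 28.5% of AGP bases at 350 bp outside the edge and 32.5% at 250 bp inside, where 25 members were long enough to count. For all protein-coding genes it was 21.8% and 7.90%. H3K27me3 covered 43.5% of AGP bases at 350 bp outside and 36% at 250 bp inside, against 24.1% and 8.69%. Farther out, in the bin centred on -1950 bp from the edge, H3K27me1 covered 9.15% around AGP genes, against 14.7%, and H3K27me3 15.6%, against 15.8%. Over 10 kb on each side, median coverage was 14.8% for H3K27me1 and 15.9% for H3K27me3, against 10.5% and 13% over all protein-coding genes.

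**Figure D3:**
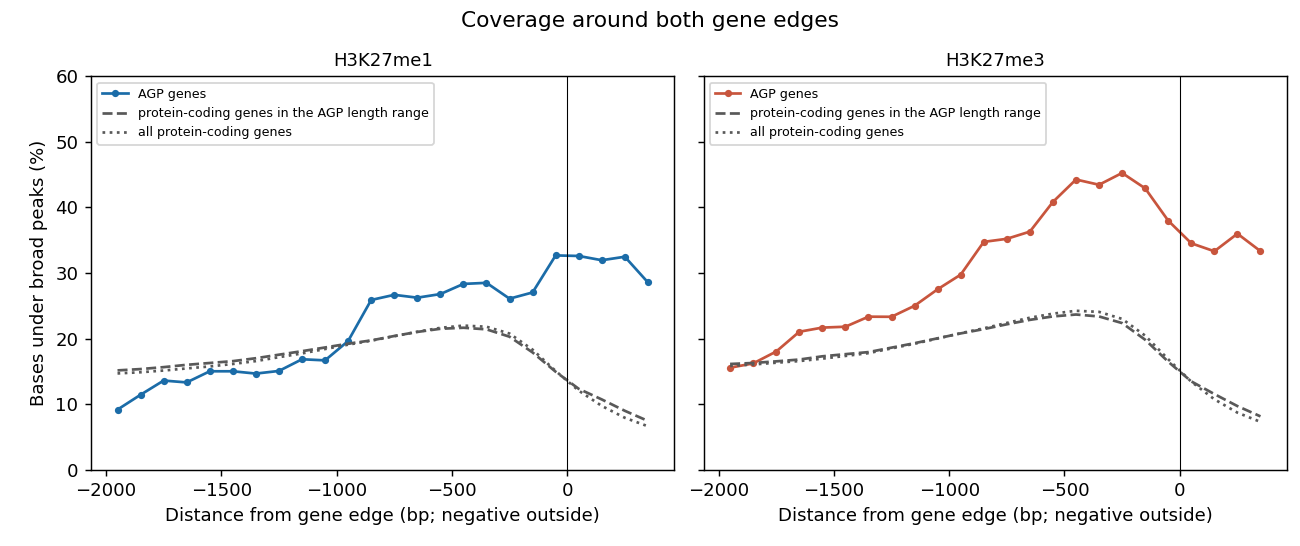
Percentage of bases under broad peaks against distance from the gene edge in bp, with both edges pooled and negative values outside the gene, for AGP genes (solid, coloured), protein-coding genes within the AGP length range (dashed) and all protein-coding genes (dotted). At 250 bp inside the gene the AGP lines stand at 32.5% for H3K27me1 and 36% for H3K27me3, and the lines of all protein-coding genes at 7.90% and 8.69%.

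The genes next to covered members were covered in shares near those of all protein-coding genes, with small counts. Of the 18 protein-coding neighbours of the 9 members covered by H3K27me1, 1 was itself covered over at least 50% (5.56%). That gene, AT4G09035, is 337 bp long and overlaps AGP10. Of the 20 neighbours of the 10 members covered by H3K27me3, 2 were covered (10%), namely AT4G09035 and AT2G23118, a gene of 144 bp that lies 2108 bp from AGP17. The neighbours of AGP11, 182 bp away on the lower-coordinate and 7 bp on the higher-coordinate side, were covered 5.37% and 3.96% by H3K27me1 and 7.08% and 4.54% by H3K27me3. Among all protein-coding genes, 5.49% were covered over at least 50% by H3K27me1 and 5.67% by H3K27me3. Next to members not covered, 3 of 42 neighbours (7.14%) were covered by H3K27me1 and 3 of 40 (7.5%) by H3K27me3. The neighbour counts are therefore no result about covered members. Peaks that cross from a member into a neighbour cannot be credited to one gene.

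Of the 30 members, AGP5, AGP9 and AGP10 lay in the pericentromere windows. Of the 27 members outside them, 8 (29.6%) were covered over at least 50% by H3K27me1, against 3.37% of the 24437 protein-coding genes outside the windows, and 9 (33.3%) by H3K27me3, against 4.21%.

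Peaks over AGP genes were of ordinary strength for their lists. The 9 H3K27me1 peaks on members covered over at least 50% had a median fold of 1.61 (range 1.45 to 1.88), where the list median was 1.57. The 10 H3K27me3 peaks had a median of 1.68 (range 1.49 to 1.92), where the list median was 1.64. Their median widths, 1869 and 2368.5 bp, exceeded the list medians of 1168 and 1122 bp. These members were counted by coverage, which wide peaks give more readily, and nothing is read from their width.

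Narrow peaks, whose lowest −log10 q was 2.0 for both marks where the broad lists went down to 1.02, lay mostly beside the genes. Among narrow peaks that reached within 1 kb of a member, the summit was outside the gene in 15 of 16 cases for H3K27me1 and in 12 of 14 for H3K27me3. The exceptions were on AGP17 for both marks and on AGP27 for H3K27me3. Over whole chromosomes, the share of narrow peaks in genes was 8.40% to 12.4% for H3K27me1 and 9.06% to 12.8% for H3K27me3. Summits of the narrow peaks that reached within 1 kb of all protein-coding genes were not counted. The place of these summits is therefore not read as particular to AGP genes. Narrow peaks touched 2 of 30 genes for H3K27me1 (6.67%), against 8.50% of all protein-coding genes, and 4 of 30 for H3K27me3 (13.3%), against 8.25%. No member was covered over 50% by narrow peaks of either mark, where 0.306% and 0.193% of all protein-coding genes were. At such a background a count of 0 among 30 is not a result about these genes. In the flanks, narrow H3K27me1 touched 13 of 30 members (43.3%), against 25%, and narrow H3K27me3 10 of 30 (33.3%), against 26.1%.

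Among broad peaks, stricter selections left fewer members. At −log10 q 2 and above, 6 members (20%) were covered over at least 50% by H3K27me1, against 4.89% of all protein-coding genes, and 7 (23.3%) by H3K27me3, against 4.62%. Keeping the upper 50% of broad peaks by fold, 5 members were covered by each mark (16.7%), against 3.43% and 3.39%. AGP17, AGP24 and AGP27 were among the 5 for both marks. With a −log10 q of at least 5, AGP24 alone remained, under both marks (3.33%), against 1.69% for H3K27me1 and 0.867% for H3K27me3.

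**Figure D4:**
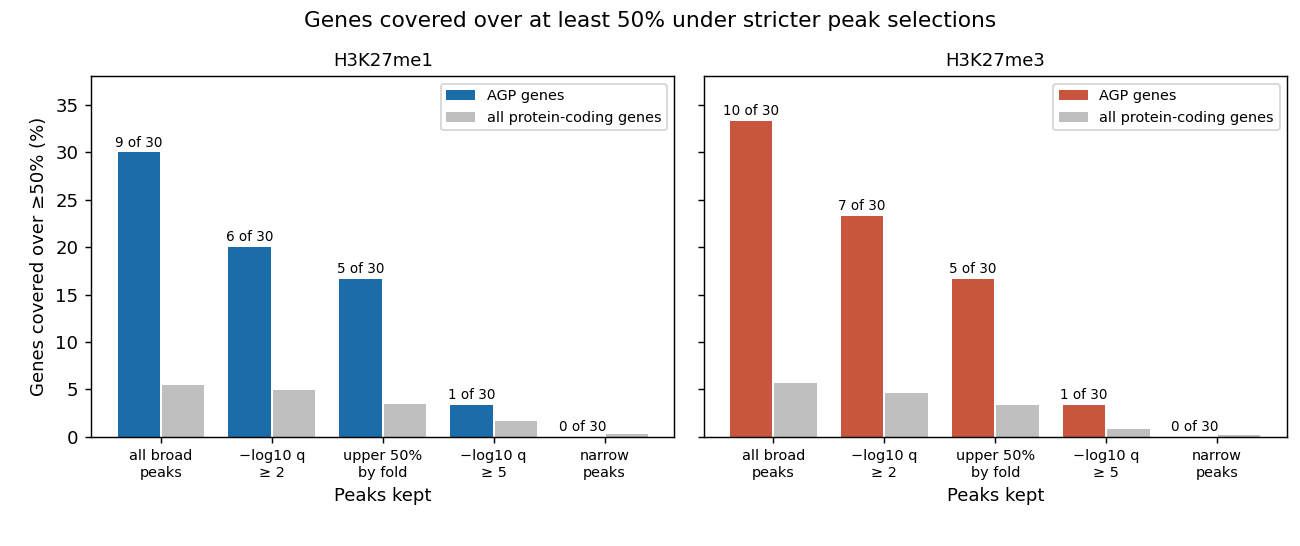
Percentage of AGP genes (coloured) and of all protein-coding genes (grey) covered over at least 50% when all broad peaks, 3 stricter selections of them or the narrow peaks are used, with the count of members above each coloured bar. H3K27me1 runs from 9 of 30 to 0 of 30 and H3K27me3 from 10 of 30 to 0 of 30. The counts of 0 are those of the narrow peaks, where all protein-coding genes have 0.306% and 0.193%.

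The related fasciclin-like (FLA) genes had counts near or below those of all protein-coding genes. FLA proteins carry arabinogalactan regions together with fasciclin domains, which take part in cell adhesion. At least 50% of the gene was covered in 0 of 19 FLA genes for both marks, against 5.49% of all protein-coding genes for H3K27me1 and 5.67% for H3K27me3, a background at which a count of 0 among 19 is not a result about these genes. At least 1 base was under H3K27me1 in 3 of 19 (15.8%), against 22.7% of all protein-coding genes, and under H3K27me3 in 4 of 19 (21.1%), against 26.0%. AGP genes had 13 (43.3%) and 14 (46.7%) of 30. FLA15 was the most covered, with 31.6% under H3K27me1 and 29.1% under H3K27me3, and FLA3 and FLA14 had 0% of gene and flanks under both. Those FLA genes were chosen after their values were seen. FLA genes were longer, with a median of 1371 bp against 858 bp for AGP genes, and the part of length in this was not tested. Of 6 genes for prolyl hydroxylation and galactosylation of arabinogalactan proteins, 0 were covered over at least 50%, against the same 5.49% and 5.67%, which is no result for 6 genes. At least 1 base was under H3K27me1 in 4 (66.7%), against 22.7%, and under H3K27me3 in 4 (66.7%), against 26.0%. The list is small and holds only genes whose symbol or synonym matched a set of prolyl hydroxylase and galactosyltransferase names, so it may be incomplete. Its genes are 1544 to 4320 bp long.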

How the data were processed

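Sperm nuclei of htr10 plants were profiled in 3 immunoprecipitations each of H3K27me1 and H3K27me3 and 3 inputs. Per the labels, mononucleosomes were sequenced as paired-end reads. Per the submitters' processing notes, MACS2 2.1.0, deepTools 2.5.0.1, bedtools, Picard, SAMtools 1.3, Bowtie2 2.1.0 and Trim Galore 0.4.1 were used on TAIR10. Those notes assign no step to a tool. The labels of all 3 samples of a mark name the same lists, and whether samples were pooled is not stated there. Used here of each deposited peak were its extent, the fold (a ratio over background), the −log10 q-value and, in narrow lists, the summit, all the authors' values, with columns read in the usual broadPeak and narrowPeak order. The lowest deposited −log10 q was 1.02 for the broad lists and 2.0 for the narrow lists.

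From the lists, overlapping intervals were merged and the percentage of each protein-coding gene and of the 1 kb on each side under peaks was computed (Python 3.11.15, pandas 2.3.3), as checked on simulated intervals. Gene names and extents came from a table of 38312 genes on TAIR10.1. Gene coordinates are not printed because the peaks are on TAIR10. To check the match, narrow peaks were moved by up to 3000 bp each way, 100 bp at a time, and their share in genes was lowest at 0 bp in 10 of 10 combinations of mark and chromosome. The table gives no strand, exons or untranslated regions, so flanks are named by lower or higher coordinate. Pericentromere windows ran from 12 to 18 Mb on chromosome 1, 1 to 7 Mb on 2, 11 to 17 Mb on 3, 2 to 6 Mb on 4 and 9 to 16 Mb on 5.

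A gene was counted as covered at 50% or more of its length. Members, lists and comparisons were chosen with earlier results of these data known, so no test was run. By the naming rule, coverage and peak values are given for the pollen-expressed members, for members with any covered base and for those with at least 50% of a flank covered, and the others are given by count. The flank shares of AGP2 and AGP41 were added after their values were seen. Narrow lists, stricter peaks, other limits and other flank widths were tried. No sequences are shown, since no sequence of the files' build was at hand.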

Additional observations from a re-analysis of the deposited data

How the results depend on the processing

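Changing the limits on the broad lists changed no count by more than 1.5 times. This covered 25% of the gene in place of 50%, 100 bases in place of 1, flanks of 500 bp or 2 kb, flanks without bases in annotated genes, and members by synonym, which added FLA8 (AGP8). Selecting peaks did change counts. The narrow lists left 0 and 0 members covered over at least 50% by H3K27me1 and H3K27me3. They left 2 and 4 touched on the gene and 10 with H3K27me3 in a flank. FLA genes stood at 0 and 1 and glycosylation genes at 1 and 0. All protein-coding genes had 0.306% and 0.193% covered, 8.50% and 8.25% touched, and 26.1% with H3K27me3 in a flank. A −log10 q of at least 5 left 1 and 1 members covered, 2 and 1 touched and 3 and 2 with a covered flank. FLA genes then stood at 1 and 1 and glycosylation genes at 0 and 0. All protein-coding genes had 1.69% and 0.867% covered and 5.02% and 3.28% touched. The counts touched are near those shares and are no result about the members. The 50% of peaks with the highest fold left 5 and 5 covered, 8 and 7 touched and 9 and 12 with a flank. That selection left 2 glycosylation genes for H3K27me3, as did a −log10 q of at least 2. Of all protein-coding genes, the highest folds covered 3.43% and 3.39% and touched 12.9% and 14.9%. By construction all these selections hold fewer peaks. Counts given here without a share of all protein-coding genes are not read as results.

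The mean coverage of the pollen-expressed members minus that of the others was -0.76 percentage points for H3K27me1 and 18.9 for H3K27me3 with all broad peaks. For H3K27me1 it was -1.29 with the narrow lists, -18.5 at a −log10 q of at least 2, -4.26 at 5, -14.5 for the highest folds and -10.2 with flanks included. For H3K27me3 it was 4.95, 30.6, -3.85, 38.4 and -8.32. It changed sign at a −log10 q of at least 5, where AGP24 alone is covered, and with flanks included. The flanks alone had a mean H3K27me3 coverage of 20.5% in the pollen-expressed members and 41.9% in the others. Why the flanks differ was not tested. With 4 genes in 1 group, a single gene moves the difference in mean coverage.

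No paired analysis was possible because the lists carry no value per sample. Samples were not left out in turn for the same reason, and depth is unknown.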
